A study of Mus musculus with 16 samples.

Results

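The interferon response and MHC class I genes were followed here in mouse quadriceps muscle, as 35 named genes whose rows were found by symbol in a table of 18865 genes with values in every mouse. All 35 were present, and 30 of them are reported, those whose 16 mice averaged 0.5 FPKM or more. FPKM scales sequenced fragments to the length of the transcript and the size of the library, so levels can be set side by side between genes of different length.

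Poly(A)+ RNA was sequenced from whole quadriceps of male C57BL/6J mice aged 13 to 15 weeks, with 4 mice in each of 4 groups. The exercised VV and sedentary VV mice were homozygous for CaMK2gVV, a knock-in allele of the gene for CaMKIIγ in which the pair of oxidizable methionines in the regulatory domain is replaced by valines, and the exercised MM and sedentary MM mice were their wild type (WT) littermates, which keep the methionines. Exercise was 1 uphill treadmill run of 350 m, followed by 3 h of rest without food before the muscle was taken, and mice that did not finish the run were left out. Mice had been made used to the treadmill, rested for days and lost access to food on the morning of collection. The allele was present in every cell of the mouse, so the VV groups do not isolate the muscle fibre. In bulk tissue, fewer cells of a type and less RNA per cell cannot be told apart. The mice are named by their titles (for example 2161-5). The meaning of the first number of a title is not stated, and no such number occurs in both exercised and sedentary MM mice.

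Interferons bind receptors that activate JAK kinases and STAT proteins. A complex that holds STAT2 and IRF9 binds the interferon-stimulated response element (ISRE), and interferon gamma acts mainly through another element, the gamma-activated sequence (GAS). The genes switched on in this way include RNA-binding and membrane-active antiviral proteins, sensors of foreign RNA, large GTPases that attack intracellular microbes, and the machinery that cuts proteins into peptides, carries them into the endoplasmic reticulum and displays them on MHC class I. Muscle fibres at rest are known for displaying little MHC class I, and their surface level is known to be high in inflammatory myopathy.

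Promoter windows from RefSeq (GRCm38.p6), which run from 250 bases before to 50 bases after an annotated start, were matched for 27 of the 30 reported genes. No window was matched for Usp18, Iigp1 or Tap2. The ISRE core GAAANNGAAA, searched on both strands, lay in the windows of 13 of the 27 genes, or 48.1%, against 3.99% of all 27025 genes with a window. The GAS motif TTCNNNGAA, also searched on both strands, lay in those of 6 of the 27, or 22.2%, against 9.55% of all genes. A match is a string of letters and not a shown binding site. In the map of matches by distance from the start, the ISRE cores of Gbp2, Gbp3, Igtp and Irgm1 begin between positions -59 and -24 from the start, and those of Ifit1 and Ifit3 between -156 and -85.

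**Figure D1:**
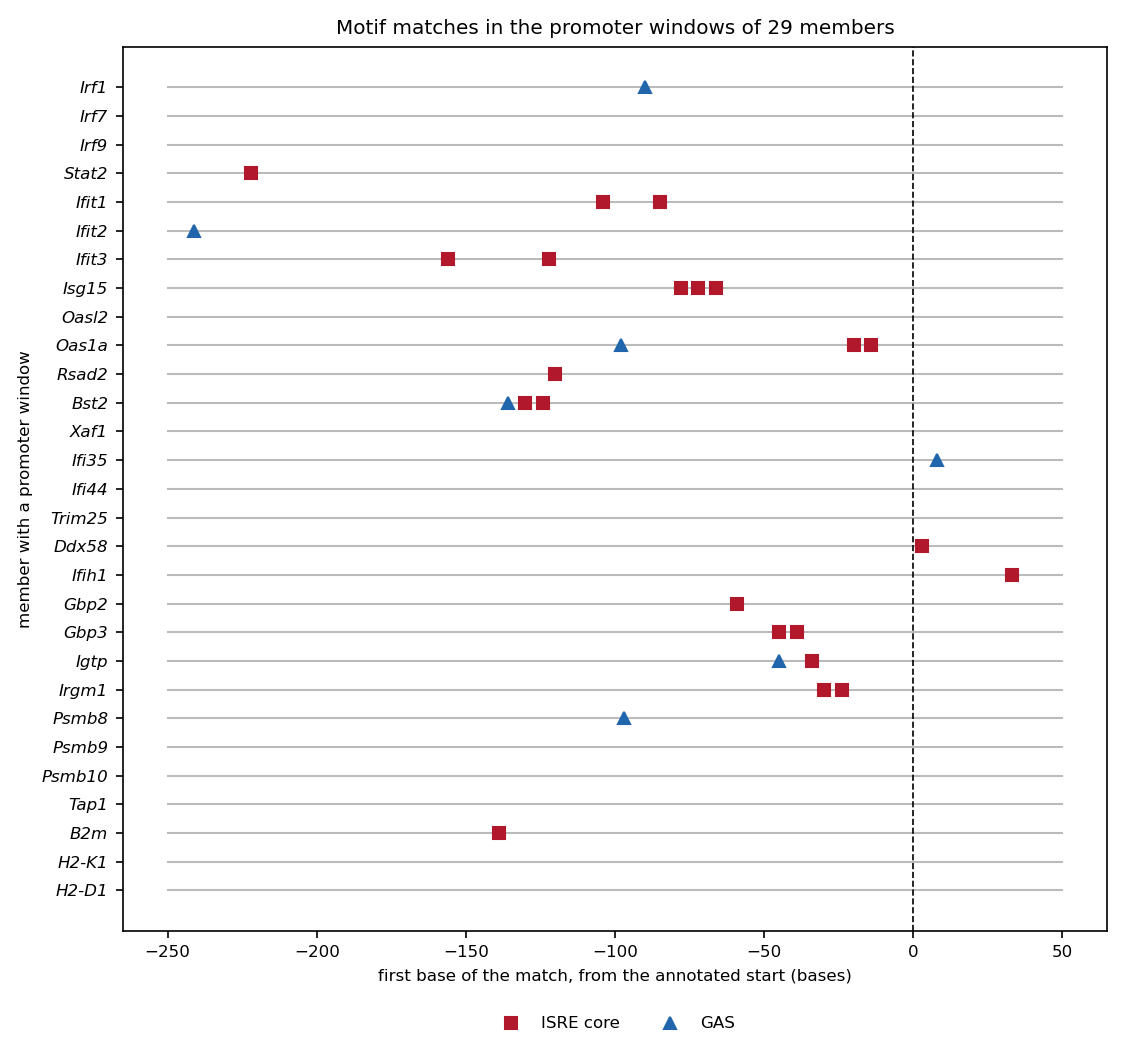
Positions of motif matches in the promoter windows of the 29 listed genes with a window, by distance in bases from the annotated start (dashed line). Squares are ISRE cores and triangles are GAS matches. Ifit1, Ifit3, Isg15, Oas1a, Bst2, Gbp3 and Irgm1 hold more than one ISRE core.

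The windows of 6 genes are shown because these genes combine an ISRE core with an unadjusted p under 0.05 in some comparison, as the 160 bases before the start, 5′ to 3′ on the strand of the gene. Capitals mark letters in an ISRE core or GAS match on either strand. The windows of Psmb9 and Irf9, which also reached such a p, held neither motif and are not shown. In Bst2, which encodes tetherin, a GAS match runs into overlapping ISRE cores, and in Igtp a GAS match stands just before an ISRE core. The Ifit1 window is chr19:34640729-34640888 (+), that of Ifit3 is chr19:34583369-34583528 (+), that of Bst2 is chr8:71537473-71537632 (-), that of Irgm1 is chr11:48871421-48871580 (-), that of Igtp is chr11:58199396-58199555 (+) and that of Gbp2 is chr3:142620503-142620662 (+).
Ifit1: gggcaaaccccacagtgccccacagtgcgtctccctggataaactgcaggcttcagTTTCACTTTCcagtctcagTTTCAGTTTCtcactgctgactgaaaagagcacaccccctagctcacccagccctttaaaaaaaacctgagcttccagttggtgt
Ifit3: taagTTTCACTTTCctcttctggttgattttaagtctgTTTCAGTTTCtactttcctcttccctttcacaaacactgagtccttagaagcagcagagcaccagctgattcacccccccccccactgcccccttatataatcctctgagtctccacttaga
Bst2: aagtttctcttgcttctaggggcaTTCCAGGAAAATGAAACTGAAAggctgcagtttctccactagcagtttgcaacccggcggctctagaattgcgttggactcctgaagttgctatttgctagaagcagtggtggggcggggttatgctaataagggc
Irgm1: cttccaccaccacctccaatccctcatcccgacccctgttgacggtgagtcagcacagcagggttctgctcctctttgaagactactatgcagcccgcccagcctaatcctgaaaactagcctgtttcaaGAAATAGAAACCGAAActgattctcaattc
Igtp: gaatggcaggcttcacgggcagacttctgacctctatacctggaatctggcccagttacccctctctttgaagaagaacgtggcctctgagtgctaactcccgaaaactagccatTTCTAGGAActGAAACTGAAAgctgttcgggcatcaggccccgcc
Gbp2: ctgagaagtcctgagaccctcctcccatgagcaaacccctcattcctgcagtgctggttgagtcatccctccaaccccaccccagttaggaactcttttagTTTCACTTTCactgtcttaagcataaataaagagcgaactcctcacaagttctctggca

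Across the 16 mice, 3 of the 30 genes exceeded 10 FPKM, and all 3 encode parts of the displayed MHC class I molecule. B2m, the shared light chain, averaged 135 FPKM, above 96.2% of all rows tested. The heavy chain genes H2-D1 and H2-K1 averaged 45.5 and 38.7 FPKM. Near-identical class I genes share reads with both heavy chain genes, so their split is uncertain, as it is within the Ifit, Gbp, Oas and Irgm families. Another 5 genes lay between 5 and 10 FPKM (Irgm1 at 8.94, Ifi35 at 8.57, Igtp at 6.61, Irf1 at 6.58 and Bst2 at 6.18), 21 between 1 and 5, and Ifit1 at 0.894. The median of the 30 means was 2.65 FPKM, against 5.96 FPKM for all rows tested. The 5 genes under 0.5 FPKM were the sensor Dhx58 (0.329), Ifi44 (0.341), Oas1a (0.264) and the dynamin-like GTPases Mx2 (0.202) and Mx1 (0.0912, listed at 0 in 1 mouse). They were not tested in the main fit, and none passed in the alternative with no filter on the mean.

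**Figure D2:**
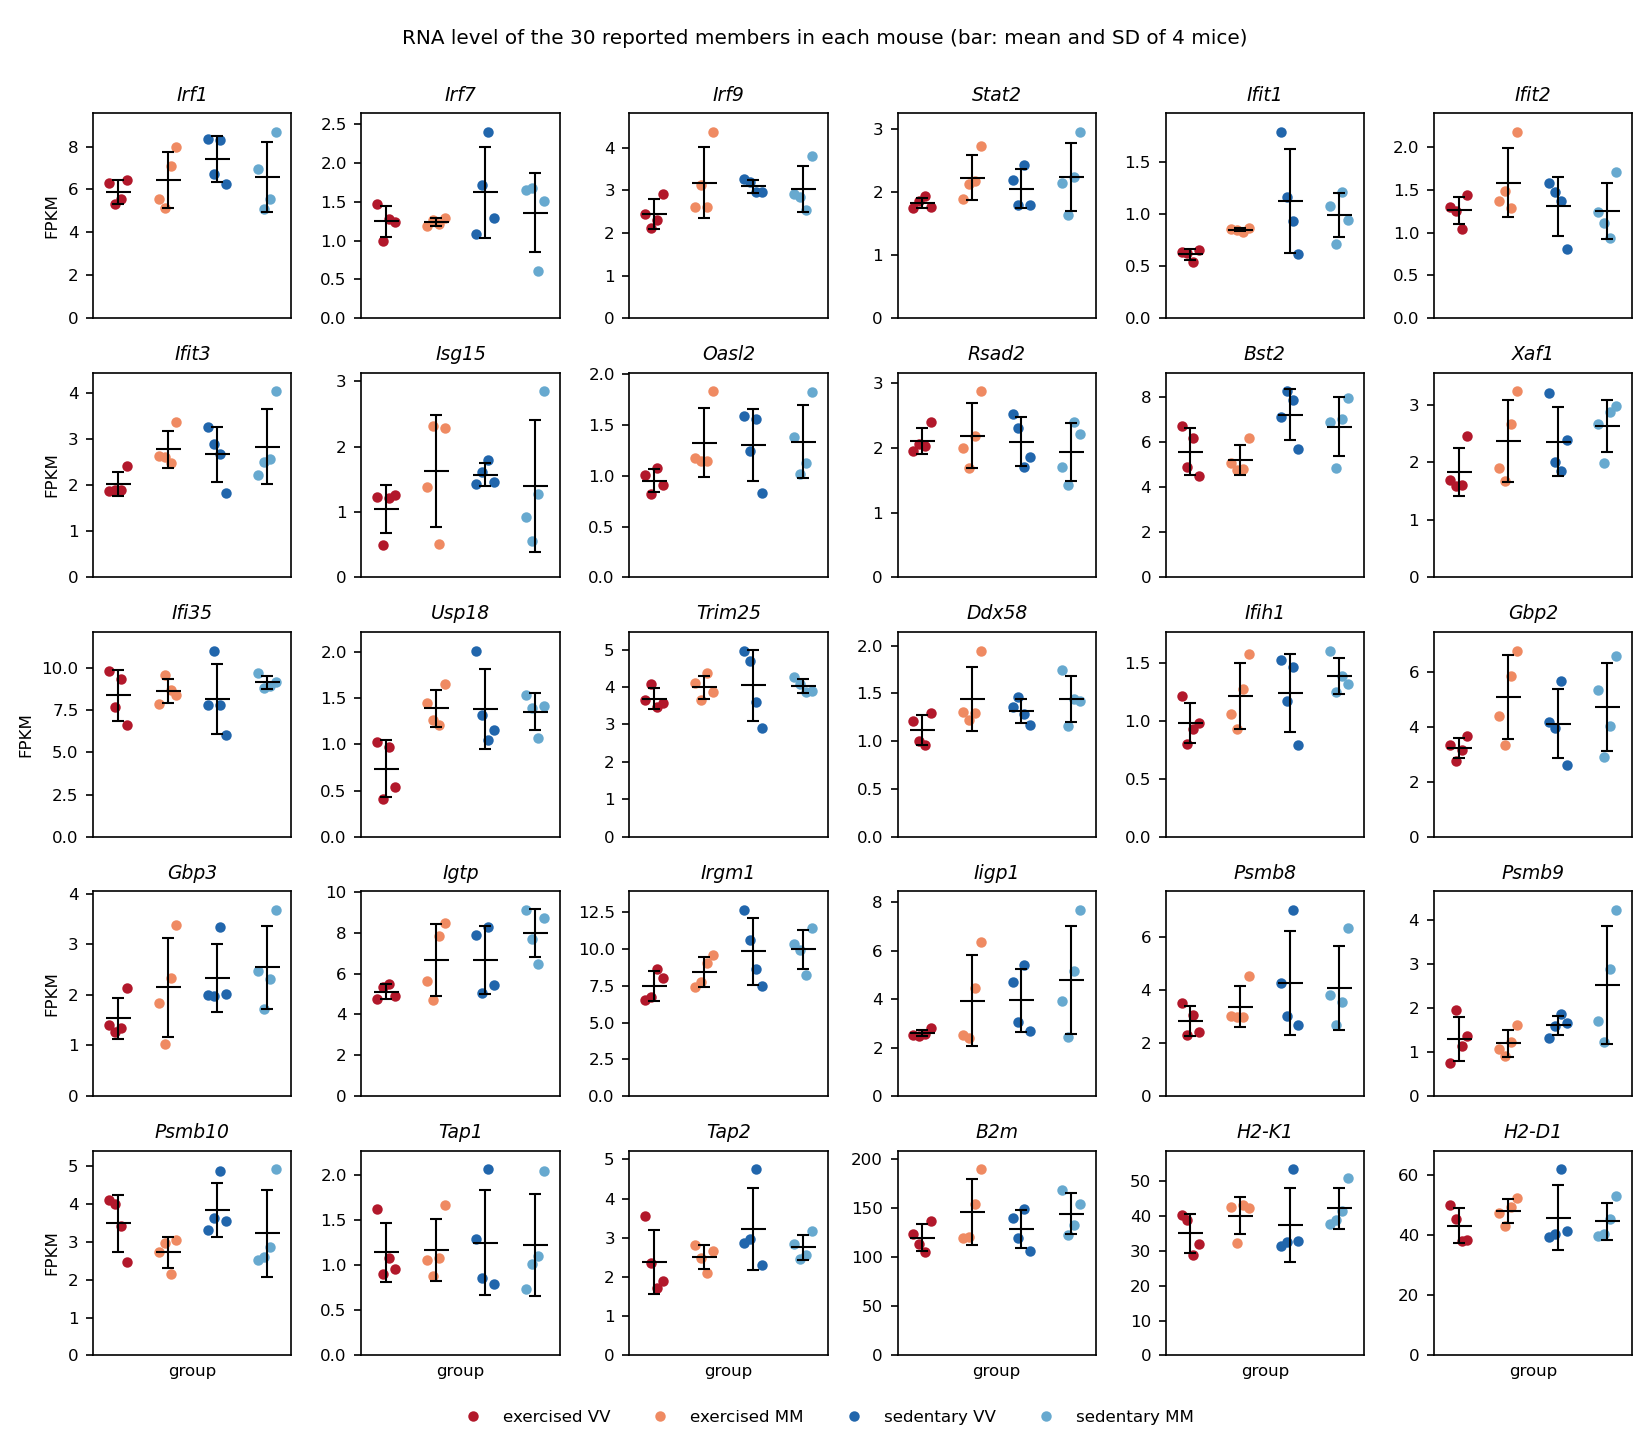
FPKM of each of the 30 reported genes in every mouse (points), on axes that start at 0, with the mean and SD of 4 mice (bars), for exercised VV, exercised MM, sedentary VV and sedentary MM muscles from left to right. The groups overlapped for most genes, and Usp18 in exercised VV muscles lay below the other groups, at 0.414 to 1.02 FPKM.

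None of the 30 genes passed an adjusted p of 0.05 in any of the 7 comparisons (limma on log2(FPKM + 0.1), Benjamini-Hochberg over 11693 rows, two-sided). The 95% intervals of single-state differences reached a median of 0.437 to either side on the log2 scale. They ran from 0.290 for H2-D1 to 0.961 for Isg15. These intervals are for 1 gene at a time and are not the limit of what could pass after adjustment over all rows. Usp18, at -0.90 for VV against MM after exercise, did not pass, so changes of that size could go uncalled with 4 mice a group. The values that follow describe where the genes lay. Exercised VV muscles had the lowest mean of the 4 groups for 23 of the 30 genes (76.7%), but also for 49.1% of all rows tested. Exercised MM muscles had the lowest mean for 4 genes, sedentary VV for 1 and sedentary MM for 2, beside 19.9, 12.6 and 18.4% of all rows.

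Exercise in VV muscles was compared with rest first. Of the 30 genes, 28 had a log2 difference below 0, against 72.4% of all rows tested, with a median of -0.33 against -0.08 for all rows. None passed, where 0.248% of all rows did, and 4 genes had an unadjusted p under 0.05, all lower in exercised VV (Usp18, Ifit1, Irgm1 and Bst2), beside 9.77% of all rows. This count was 2 without mouse 2161-7 or 2074-2, 7 without 2127-3 or 2296-3 and 11 without 2296-5. The 4 exercised VV mice lay wholly below the 4 sedentary VV mice for 3 genes (Irf9, Isg15 and Usp18), beside 4.87% of rows in which these groups did not overlap.

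In MM muscles, the same comparison gave 22 of 30 genes below 0, beside 61% of all rows, and a median of -0.03 against -0.04. None passed, beside 1.19% of all rows, and Psmb9 alone had an unadjusted p under 0.05, beside 10.8% of rows. The median ran between -0.15 and 0.02 as each mouse was left out, and median-ratio scaling left 15 genes below 0 in place of 22. The unadjusted count was 0 without 2127-3, 2 without 2074-1, 2161-5, 2296-3 or 2296-5, and 3 without 2297-3. In no gene did the exercised and sedentary MM mice separate, beside 6.76% of all rows.

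**Figure D3:**
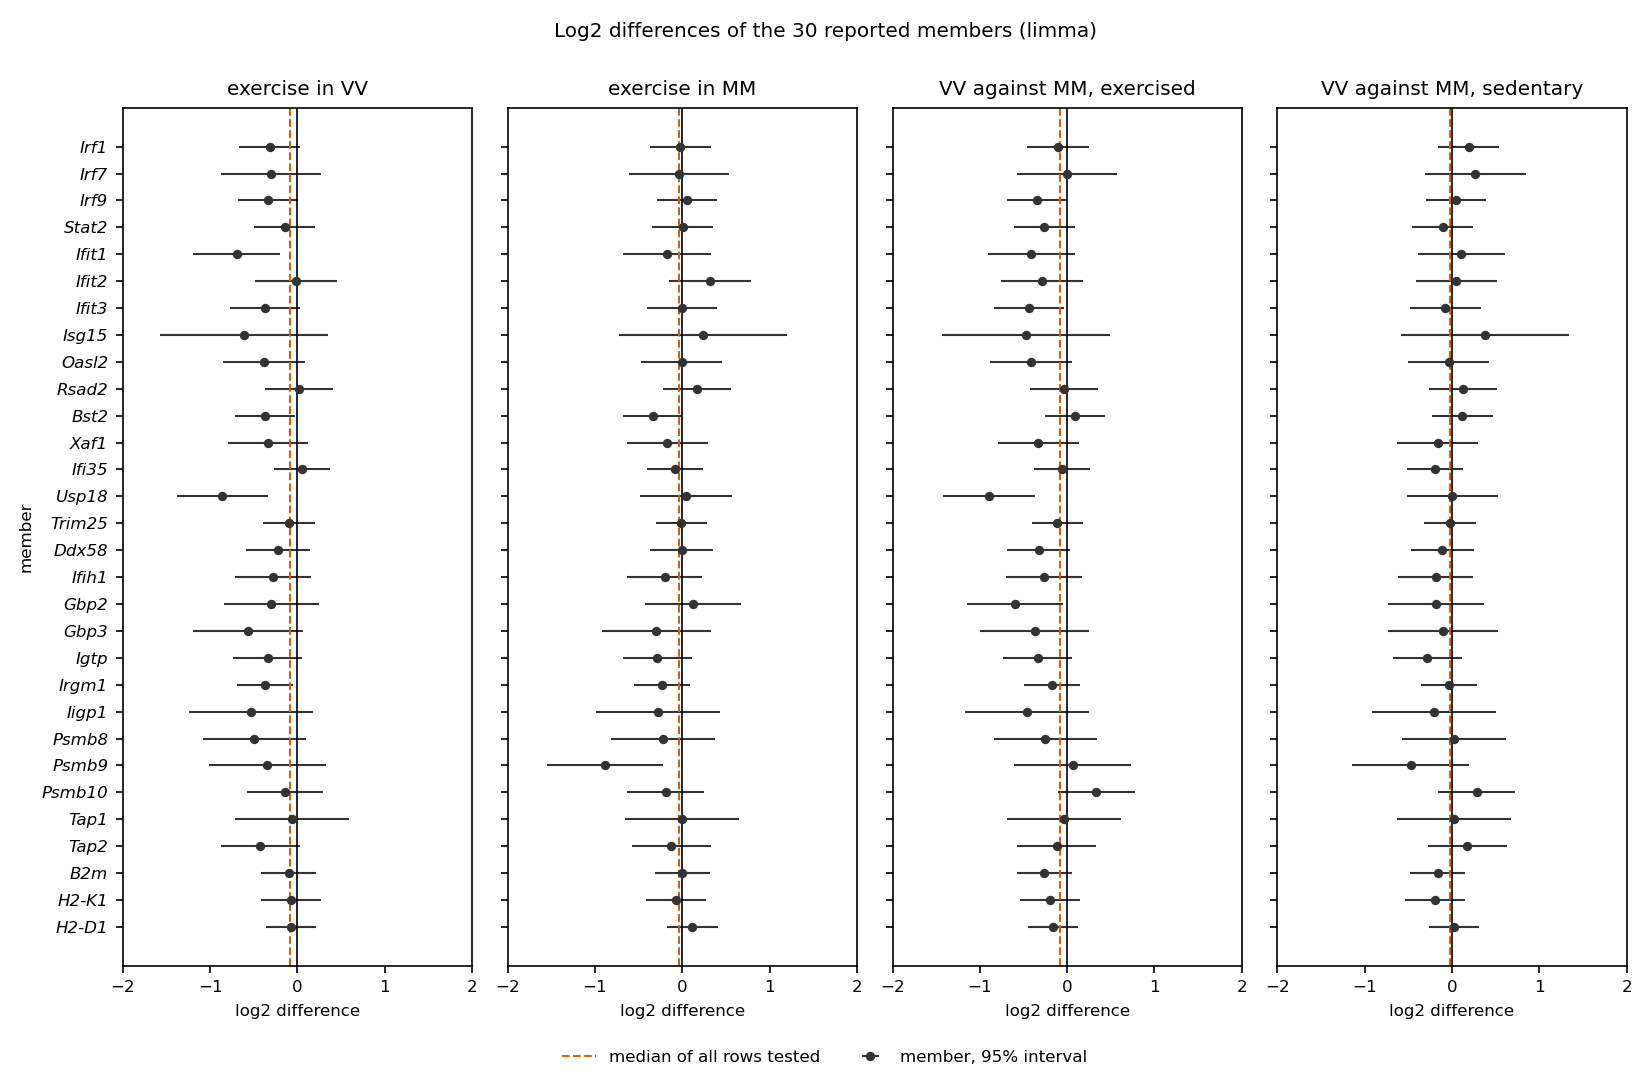
Log2 differences of the 30 reported genes with 95% intervals (limma), for exercise in VV, exercise in MM, VV against MM after exercise and VV against MM at rest. Negative values are lower in exercised or in VV muscles. The dashed line is the median of all rows tested, at -0.08, -0.04, -0.08 and -0.03 in panel order, and the points of the exercise in VV and exercised VV against MM panels lie mostly left of it.

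Averaged over both genotypes, exercise gave 27 of 30 genes below 0, beside 69% of all rows, with a median of -0.18 against -0.06, or -0.11 without 2127-3. None passed, beside 2.97% of all rows, and the 6 with an unadjusted p under 0.05 (Bst2, Irgm1, Psmb9, Ifit1, Igtp and Usp18) were all lower after exercise, beside 18.3% of rows. This count was 10 without 2297-3 or 2296-5. Without 2074-1, Bst2 passed, at -0.43 (adjusted p = 0.0466), and no other gene passed when any mouse was left out. The VV minus MM difference of the exercise effects was below 0 for 27 of 30 genes, beside 62.2% of all rows, with a median of -0.20 against -0.04. This median was -0.31 without 2127-3, -0.10 without 2074-1, -0.09 without 2126-4 and -0.08 without 2297-3. None passed, and 0% of all rows did. Usp18 alone had an unadjusted p under 0.05, beside 2.06% of rows, and that count was 0 without 2074-2, 2 without 2246-4, 3 without 2296-5 and 4 without 2127-3.

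Between genotypes, exercised muscles gave 27 of 30 genes lower in VV than in MM, beside 68.6% of all rows, with a median of -0.26 against -0.08, or -0.13 without 2297-3. None passed, with 0% of all rows passing, and 4 had an unadjusted p under 0.05 (Usp18, Ifit3, Gbp2 and Irf9), beside 6.99% of rows. That count was 1 without 2297-3, 2161-7 or 2296-2, 2 without 2161-5 and 2 under median-ratio or quantile scaling. The 4 exercised VV mice lay below the 4 exercised MM mice for Ifit1, Ifit3, Oasl2 and Usp18, beside 3.43% of rows that did not overlap. At rest, 16 of 30 genes were below 0, beside 56.4% of all rows, with a median of -0.03 in both, which lay between -0.13 (without 2074-2) and 0.09 (without 2127-3) as each mouse was left out. None passed, beside 0.00855% of all rows, none had an unadjusted p under 0.05, beside 4.61% of rows, and none separated the groups, beside 1.96%. One gene had such a p without 2074-1, 2127-3, 2074-5 or 2126-4. Over both states, 24 of 30 were below 0 (65.2% of rows), with a median of -0.15 against -0.06, or -0.10 without 2296-5, none passed (0.00855%) and 3 had an unadjusted p under 0.05 (Usp18, Igtp and Gbp2), beside 12.5% of rows. This last count ran between 1 (without 2246-4, 2161-5, 2161-7 or 2296-5), 5 (without 2161-9, 2296-3, 2074-2 or 2126-4) and 7 (without 2074-1).

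The first number of the titles moved with these medians. Among the mice numbered 2161, the 2 exercised VV and 2 exercised MM mice differed by a median of -0.03 over the 30 genes, with 19 below 0, against -0.26 with all mice. Among those numbered 2296, the 2 exercised VV mice and the 1 sedentary VV mouse differed by -0.04, with 16 below 0, against -0.33 with all mice. Among those numbered 2074, the 2 sedentary VV mice and the 1 sedentary MM mouse differed by 0.25, with 4 below 0. Fitted as a term, the title number turned the median for exercise in MM to 0.37 with 7 of 30 genes below 0 and that over both genotypes to 0.22 with 10 below 0, and brought that for exercise in VV to -0.04 with 16 below 0. The term also turned the median for VV against MM at rest to 0.25 with 4 below 0. Over both states it became 0.0726 with 6 below 0, and after exercise -0.03 with 19 below 0. The median of the VV minus MM difference moved to -0.43 with 23 below 0. For exercise in VV and for VV against MM in each state, these values repeat those of the mice that share a number. No number holds both exercised and sedentary MM mice, so the value for exercise in MM comes only through VV mice. Usp18 stayed below 0 within the number 2161 after exercise, at -0.93, and within 2296 for exercise in VV, at -0.60. Within 2074, at rest, it had 2.01 and 1.32 FPKM in the VV mice and 1.39 FPKM in the MM mouse.

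All 4 transcription factors of the response lay below 0 for exercise in VV, with a median of -0.31, beside 72.4% of all rows. For exercise in MM 2 of 4 did, with a median of -0.01, beside 61% of all rows. Irf1, which interferon gamma induces, had 6.28, 5.30, 5.54 and 6.43 FPKM in exercised VV mice and 5.55, 5.14, 7.08 and 7.97 FPKM in exercised MM mice. It had 8.34, 6.74, 8.30 and 6.26 FPKM in sedentary VV mice and 6.97, 5.10, 5.55 and 8.68 FPKM in sedentary MM mice. The ranges overlapped in every pair of groups, and exercise in VV gave -0.32 (95% interval -0.67 to 0.03). Irf9, the DNA-binding part of the complex on the ISRE, had 2.43, 2.10, 2.29 and 2.92 FPKM in exercised VV mice, against 3.26, 3.20, 2.96 and 2.96 FPKM in sedentary VV mice. It had 2.60, 3.13, 2.61 and 4.37 FPKM in exercised MM mice, against 2.92, 2.83, 2.54 and 3.80 FPKM in sedentary MM mice. Every exercised VV mouse was below every sedentary VV mouse, by a narrow gap, at -0.34 (-0.68 to 0.00, limma adjusted p = 0.522), and the MM groups overlapped. Stat2 spanned 1.65 to 2.96 FPKM and Irf7, which amplifies interferon production, spanned 0.605 to 2.40 FPKM over the 16 mice. Neither had an unadjusted p under 0.05 in any comparison.

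Among the antiviral effectors, the Ifit family binds viral RNA and blocks its translation. Ifit1 had 0.640, 0.627, 0.535 and 0.656 FPKM in exercised VV mice, against 1.79, 1.16, 0.934 and 0.617 FPKM in sedentary VV mice. It had 0.856, 0.847, 0.832 and 0.862 FPKM in exercised MM mice, against 1.08, 0.717, 1.21 and 0.945 FPKM in sedentary MM mice. The exercised VV mice lay close together below all exercised MM mice, and one sedentary VV mouse, 2296-5, was as low as they were. Exercise in VV gave -0.69 (-1.19 to -0.20, limma adjusted p = 0.337), and within the number 2296 the difference was -0.05.

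Ifit3 had 1.87, 1.91, 1.89 and 2.41 FPKM in exercised VV mice, against 2.64, 2.62, 2.48 and 3.38 FPKM in exercised MM mice. It had 3.26, 2.91, 2.69 and 1.85 FPKM in sedentary VV mice, against 2.24, 2.52, 2.57 and 4.05 FPKM in sedentary MM mice. After exercise the highest VV mouse was just below the lowest MM mouse, and at rest the genotypes overlapped, with 2296-5 the lowest of all 16. The exercised difference was -0.44 (-0.84 to -0.04, limma adjusted p = 0.638). Ifit2, from the same chromosomal cluster, spanned 0.807 to 2.18 FPKM and had no unadjusted p under 0.05.

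Bst2, which holds budding virus on the cell surface, had 6.72, 4.89, 6.17 and 4.52 FPKM in exercised VV mice, against 7.10, 8.26, 7.86 and 5.70 FPKM in sedentary VV mice. It had 5.08, 4.78, 4.80 and 6.18 FPKM in exercised MM mice, against 6.88, 4.87, 7.03 and 7.96 FPKM in sedentary MM mice. In each genotype 3 of 4 sedentary mice were above all exercised ones, and 2296-5 and 2074-1 lay among the exercised mice. The genotypes had near-equal differences, -0.37 in VV and -0.34 in MM, and their average was -0.36 (-0.60 to -0.11, limma adjusted p = 0.110). Fitting the title number as a term turned the average to 0.10.

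Ifi35, the most abundant effector, had 9.81, 7.68, 9.34 and 6.60 FPKM in exercised VV mice, against 7.82, 11.01, 7.82 and 6.01 FPKM in sedentary VV mice. It had 7.85, 9.56, 8.68 and 8.36 FPKM in exercised MM mice, against 9.69, 8.82, 8.92 and 9.13 FPKM in sedentary MM mice. Its levels overlapped throughout, and its differences lay between -0.19 and 0.14. Isg15, the ubiquitin-like protein that is joined to other proteins, lay between 0.500 and 1.26 FPKM in exercised VV mice, below all sedentary VV mice, which began at 1.43. Its MM mice were widely spread, with 0.511 to 2.32 FPKM after exercise, against 0.553 to 2.85 FPKM at rest. Oasl2, of the oligoadenylate synthetase family, lay between 0.820 and 1.07 FPKM in exercised VV mice and between 1.14 and 1.83 FPKM in exercised MM mice, a difference of -0.42 (-0.88 to 0.05). Rsad2, which encodes viperin, and Xaf1 spanned 1.43 to 2.87 and 1.59 to 3.24 FPKM, with no unadjusted p under 0.05.

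Usp18, which strips Isg15 from proteins and dampens the type I interferon receptor, had the smallest p-value of the 30 genes in 4 of the 7 comparisons. It had 1.02, 0.414, 0.974 and 0.543 FPKM in exercised VV mice, against 1.45, 1.26, 1.21 and 1.65 FPKM in exercised MM mice. It had 2.01, 1.32, 1.05 and 1.16 FPKM in sedentary VV mice, against 1.53, 1.39, 1.06 and 1.42 FPKM in sedentary MM mice. All 4 exercised VV mice were below the other 12 mice, and the other groups overlapped. The mean was 0.738 ± 0.305 FPKM in exercised VV and 1.39 ± 0.201 FPKM in exercised MM (SD, n = 4 each), a log2 difference of -0.90 (-1.42 to -0.37, limma adjusted p = 0.638). Against sedentary VV the difference was -0.86 (-1.39 to -0.34, limma adjusted p = 0.248), and the VV minus MM difference of exercise effects was -0.90 (-1.64 to -0.16, adjusted p = 0.9997).

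Usp18 was listed with the RNA sensors and their regulators. Trim25, the ubiquitin ligase that acts on RIG-I, had 3.66, 4.08, 3.47 and 3.56 FPKM in exercised VV mice and 4.10, 3.65, 4.36 and 3.87 FPKM in exercised MM mice. It had 4.97, 4.68, 3.61 and 2.90 FPKM in sedentary VV mice and 4.28, 4.09, 3.86 and 3.88 FPKM in sedentary MM mice. The sedentary VV mice spanned all other groups, and no difference exceeded 0.11 in size. Ddx58, which encodes RIG-I, and Ifih1, which encodes MDA5, spanned 0.957 to 1.95 and 0.794 to 1.61 FPKM, with exercised VV means of 1.12 and 0.982 FPKM against 1.44 and 1.21 FPKM in exercised MM, and no unadjusted p under 0.05.

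All 5 interferon-inducible GTPases lay below 0 in each comparison except exercise in MM, where 4 of 5 did, beside 61% of all rows. In the other comparisons between 56.4% (VV against MM at rest) and 72.4% (exercise in VV) of all rows lay below 0. Irgm1, which helps to clear intracellular bacteria and parasites, had 6.51, 6.70, 8.65 and 8.04 FPKM in exercised VV mice, against 12.7, 10.6, 8.62 and 7.48 FPKM in sedentary VV mice. It had 7.45, 7.77, 9.05 and 9.56 FPKM in exercised MM mice, against 10.4, 9.90, 8.21 and 11.4 FPKM in sedentary MM mice. Its exercised and sedentary mice overlapped in both genotypes. The exercise difference averaged -0.30 (-0.53 to -0.08, limma adjusted p = 0.150), and it was 0.15 within the number 2296.

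Igtp, of the same mouse family, had 4.75, 5.33, 5.50 and 4.89 FPKM in exercised VV mice and 5.66, 4.70, 7.83 and 8.46 FPKM in exercised MM mice. It had 7.87, 5.04, 8.30 and 5.43 FPKM in sedentary VV mice and 9.11, 7.67, 6.47 and 8.71 FPKM in sedentary MM mice. All exercised VV mice were below all sedentary MM mice, while the other groups overlapped with both. VV against MM over both states gave -0.31 (-0.59 to -0.03, limma adjusted p = 0.396).

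Gbp2, a guanylate-binding protein that coats microbial vacuoles, had 3.35, 2.77, 3.15 and 3.68 FPKM in exercised VV mice, against 4.41, 3.34, 5.87 and 6.80 FPKM in exercised MM mice. It had 4.20, 3.97, 5.70 and 2.64 FPKM in sedentary VV mice, against 5.37, 2.92, 4.05 and 6.60 FPKM in sedentary MM mice. The exercised VV mice were tightly grouped at the low end, but exercised MM mouse 2161-9 lay among them. The exercised difference was -0.60 (-1.15 to -0.05, limma adjusted p = 0.638). Gbp3 and Iigp1 spanned 1.04 to 3.68 and 2.40 to 7.67 FPKM, with exercised VV means of 1.54 and 2.60 FPKM against 2.15 and 3.93 FPKM in exercised MM.

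In MHC class I presentation, 8 of 8 genes lay below 0 for exercise in VV with a median of -0.12, beside 72.4% of all rows. For exercise in MM 7 of 8 did, with a median of -0.10, beside 61% of all rows. B2m had 123.8, 113.4, 106.0 and 137.4 FPKM in exercised VV mice and 119.5, 120.5, 154.9 and 190.0 FPKM in exercised MM mice. It had 140.7, 119.9, 149.8 and 106.8 FPKM in sedentary VV mice and 168.8, 123.3, 132.8 and 154.3 FPKM in sedentary MM mice. All groups overlapped, with exercise differences of -0.10 in VV (-0.41 to 0.21) and 0.00 in MM (-0.32 to 0.31). H2-K1 averaged 35.03 ± 5.48, 40.1 ± 5.29, 37.6 ± 10.6 and 42.2 ± 5.98 FPKM, and H2-D1 43.1 ± 5.83, 48.2 ± 3.99, 45.9 ± 10.8 and 44.6 ± 6.16 FPKM, in exercised VV, exercised MM, sedentary VV and sedentary MM (SD, n = 4 each). For H2-D1, exercise gave intervals of -0.36 to 0.22 in VV and -0.17 to 0.40 in MM, the narrowest among the 30 genes.

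The immunoproteasome subunits, which replace catalytic subunits of the standard proteasome, were less even. Psmb9 had 0.757, 1.96, 1.13 and 1.36 FPKM in exercised VV mice, against 1.32, 1.60, 1.85 and 1.65 FPKM in sedentary VV mice. It had 1.06, 0.901, 1.23 and 1.61 FPKM in exercised MM mice, against 1.70, 1.23, 2.89 and 4.22 FPKM in sedentary MM mice. Sedentary MM mice 2127-1 and 2127-3 stood above all others. Exercise in MM gave -0.89 (-1.56 to -0.22, limma adjusted p = 0.273), and no gene of the 30 kept an unadjusted p under 0.05 in that comparison without 2127-3.

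Psmb10 had 4.10, 4.00, 3.43 and 2.46 FPKM in exercised VV mice, against 2.74, 2.97, 2.15 and 3.07 FPKM in exercised MM mice. It had 3.31, 3.63, 4.88 and 3.55 FPKM in sedentary VV mice, against 2.52, 2.59, 2.87 and 4.93 FPKM in sedentary MM mice. Its genotype differences were above 0 in both states, at 0.33 after exercise (-0.11 to 0.77) and 0.28 at rest (-0.16 to 0.72), with overlapping mice. Psmb9 stood at 1.18, 1.11, 1.41 and 2.35% of Psmb6, the standard subunit it replaces, and Psmb10 at 1.54, 1.095, 1.57 and 1.29% of Psmb7, as means of exercised VV, exercised MM, sedentary VV and sedentary MM. Psmb8 spanned 2.30 to 7.02 FPKM. The peptide transporter genes Tap1 and Tap2 spanned 0.736 to 2.06 and 1.73 to 4.75 FPKM, and Tap1 lies beside Psmb9, head to head, so reads near their starts may be hard to assign. None of these had an unadjusted p under 0.05 apart from Psmb9.

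Single mice carried much of the spread, which the heat map of deviations by mouse shows as columns. Sedentary MM mouse 2127-3 was above the median of the 16 mice for 30 of 30 genes, beside 66.4% of all rows, and exercised MM mouse 2297-3 was above it for 27, beside 62.6%. Mice 2074-2 and 2126-4, both sedentary VV, were above it for 24 and 23, beside 60.4 and 56.3% of all rows. The exercised VV mice were above it for 9, 6, 5 and 8 genes, beside 43.2, 32.3, 25.3 and 51.9% of all rows. Sedentary mice 2296-5 and 2074-1 were above it for 7 each, beside 35.3 and 54.5% of all rows. The median fold between the highest and lowest mouse was 2.14 over the 30 genes, against 1.73 over all rows tested. This comparison was not matched for level, with median levels of 2.65 and 5.96 FPKM.

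**Figure D4:**
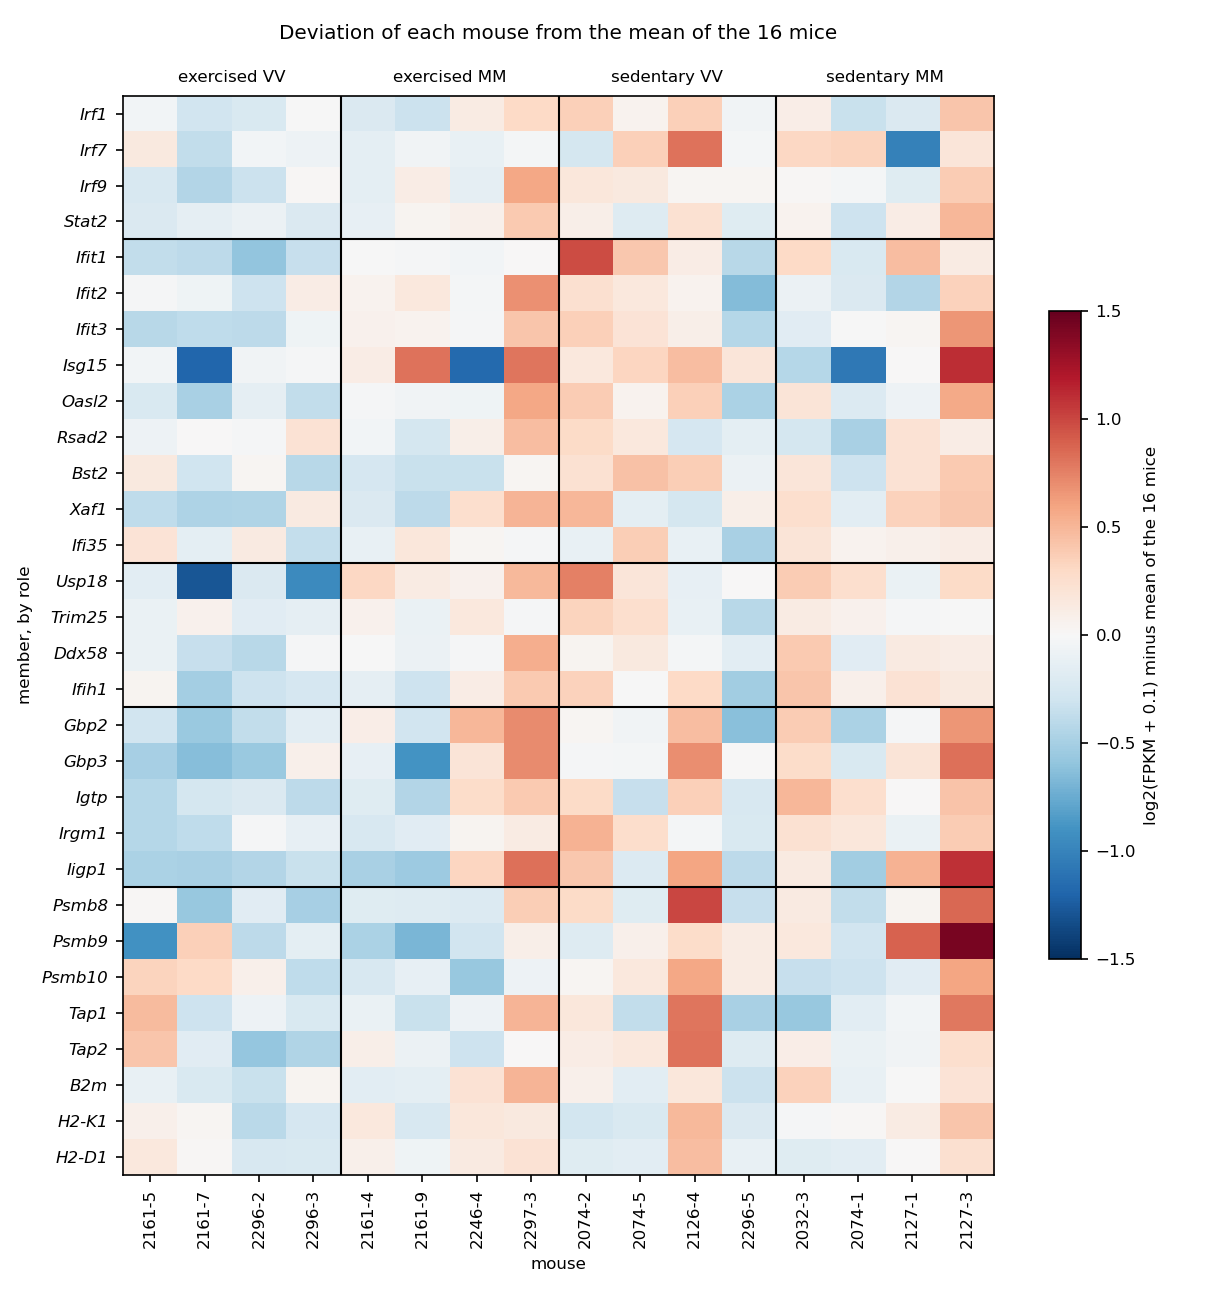
Deviation of each mouse from the mean of the 16 mice, in log2(FPKM + 0.1), for the 30 reported genes in order of role (rows, ruled between roles) and the mice of exercised VV, exercised MM, sedentary VV and sedentary MM (columns). Red is above and blue below the mean. The medians of the columns are 0.40 in sedentary MM mouse 2127-3 and 0.39 in exercised MM mouse 2297-3, and -0.33 to -0.10 in the exercised VV mice.

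Other genes of the pathway were described from lists set apart from the 30. Of 15 tested receptor and JAK-STAT genes, none passed in any comparison (limma), with an unadjusted p under 0.05 in 1 for exercise in MM, 3 for both genotypes together and 0 in the other comparisons, beside 10.8% and 18.3% of all rows for those with any. The smallest p was that of Ifngr1, a chain of the interferon gamma receptor, at 0.36 for exercise in MM (limma adjusted p = 0.264). Jak1 was the most abundant at 45.4 FPKM. Of the interferon genes, the table held Ifng and Ifnz, each listed above 0 in 1 mouse, at 0.0619 and 0.0526 FPKM.

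Of 46 tested further interferon-stimulated genes, 41 lay below 0 for VV against MM after exercise (median -0.29, beside 68.6% of all rows below 0) and 39 for exercise in VV (median -0.23, beside 72.4%). One passed for exercise in MM, beside 1.19% of all rows, and 3 over both genotypes, beside 2.97%. Ifi204, a nuclear DNA-binding protein of the p200 family, rose with exercise in MM, with 4.01, 4.64, 2.93 and 4.91 FPKM in exercised MM mice against 2.40, 1.66, 1.22 and 1.86 FPKM in sedentary MM mice. This was a difference of 1.17 (limma adjusted p = 0.0233), without overlap. In VV it had 4.60, 2.32, 2.06 and 2.66 FPKM in exercised mice against 2.97, 2.89, 2.14 and 2.06 FPKM in sedentary mice, a difference of 0.15, and the difference between the 2 effects was -1.02 (-1.74 to -0.30, adjusted p = 0.9997). The call in MM was lost without 6 of the 16 mice one at a time (2161-4, 2161-9, 2297-3, 2074-1, 2127-1 and 2127-3, with adjusted p up to 0.0892).

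Over both genotypes, Cxcl10, a chemokine that draws T cells, rose by 1.52 (limma adjusted p = 0.0394) and Ifi204 by 0.66 (adjusted p = 0.0444), while Uba7, the activating enzyme for Isg15, fell by 0.56 (adjusted p = 0.0328). Cxcl10 had 1.69, 0.631, 0.257 and 0.863 FPKM in exercised VV mice and 2.26, 1.93, 1.36 and 1.45 FPKM in exercised MM mice. It had 0.150, 0.949, 0.0667 and 0.283 FPKM in sedentary VV mice and 0.219, 0.420, 0.292 and 0.898 FPKM in sedentary MM mice, so that the MM groups separated and the VV groups overlapped. Uba7 had 1.58, 0.937, 1.21 and 0.978 FPKM in exercised VV mice and 1.14, 1.21, 1.25 and 1.25 FPKM in exercised MM mice. It had 1.76, 1.78, 2.04 and 1.15 FPKM in sedentary VV mice and 1.60, 1.75, 2.07 and 2.44 FPKM in sedentary MM mice, above the exercised MM mice in every case. These calls depended on single mice and on the settings. Leaving out one mouse at a time, that of Cxcl10 held only without 2127-3, 2296-2 or 2074-5 and that of Ifi204 only without 2246-4, 2032-3 or 2296-2, and they ended in the 13 other fits each, with adjusted p up to 0.0853 and 0.0915. That of Uba7 ended without 2161-7, 2296-3, 2161-4, 2161-9, 2074-2, 2074-5, 2126-4, 2127-1 or 2127-3, with adjusted p up to 0.0728. With no filter on the mean the adjusted p values over both genotypes were 0.0597 for Cxcl10, 0.0730 for Ifi204 and 0.0504 for Uba7. With the title number as a term they were 0.807, 0.652 and 0.954, and that of Ifi204 in MM was 0.605. Sample weights ended the call of Cxcl10 (0.0574) and plain empirical Bayes that of Ifi204 (0.0580).

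Of 20 tested genes of MHC class I presentation outside the 30, none passed. For exercise in VV all 20 lay below 0, beside 72.4% of all rows, and 2 had an unadjusted p under 0.05, beside 9.77%. For exercise in MM 2 had such a p, beside 10.8%. Over both genotypes 3 did (18.3% of rows), and for the VV minus MM difference 1 did (2.06%). For VV against MM, 2 did at rest (4.61%), 1 after exercise (6.99%) and 2 over both states (12.5%). The most abundant was Calr, a chaperone of class I assembly, at 88.3 FPKM. Mr1, which presents microbial vitamin metabolites, had the smallest p-value, at -0.24 for VV against MM over both states (limma adjusted p = 0.396). Of 9 sensing adaptors and 7 standard proteasome beta subunits, none passed either. Mavs, the adaptor of the RNA sensors, had an unadjusted p under 0.05 with exercise in MM (-0.17, beside 10.8% of all rows). It also had one for exercise averaged over both genotypes (-0.16, beside 18.3%), but not for exercise in VV alone (-0.15). Tlr3 had one in sedentary VV against MM (-0.48, beside 4.61%), and no proteasome subunit had one.

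Markers of other cells are set beside these results because immune cells express many of the 30 genes strongly. Muscle fibre markers were high, with means from 305 to 26940 FPKM. Of the T and NK cell markers 0 of 14 reached 0.5 FPKM, of the B and plasma cell markers 0 of 6 and of the neutrophil markers 2 of 7. The plasmacytoid dendritic cell list reached it for 2 of 5, Tcf4 and Bst2, which is itself one of the 30 genes, and Siglech, which defines these cells, stood at 0.226 FPKM. Of the macrophage and monocyte markers 11 of 13 reached 0.5 FPKM, and their sum lay between 42.8 and 131.5 FPKM in exercised VV mice, against 64.6 and 149.5 FPKM in exercised MM mice. At rest it lay between 35.8 and 114.8 FPKM in VV mice, against 46.2 and 79.6 FPKM in MM mice. All 11 were below 0 for VV against MM after exercise, with a median of -0.56, beside 68.6% of all rows. For exercise in MM all 11 were above 0, with a median of 0.73, where 61% of all rows were below 0. None passed (2 had an unadjusted p under 0.05 for exercise in MM, beside 10.8% of rows).

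The 5 general leukocyte markers, Ptprc (CD45) among them, summed to 11.8, 3.87, 4.27 and 6.06 FPKM in exercised VV mice and 7.94, 10.95, 6.18 and 13.4 FPKM in exercised MM mice. They summed to 5.37, 9.46, 11.4 and 3.56 FPKM in sedentary VV mice and 7.77, 4.77, 5.09 and 7.01 FPKM in sedentary MM mice. Singly, all 5 lay below 0 for VV against MM after exercise (median -0.78, beside 68.6% of all rows). For exercise in MM all 5 lay above 0 (median 0.72), where 61% of all rows were below 0. For exercise in VV all 5 lay below 0 (median -0.07), beside 72.4% of all rows, whose median was -0.08. At rest 2 of 5 lay below 0 for VV against MM, beside 56.4% of all rows, and none passed in any comparison. Mice 2297-3 and 2126-4, in which many of the 30 genes were high, were also high in these markers, and 2296-5, in which many were low, had the lowest sum. Mouse 2127-3, high for all 30 genes, lay mid-range at 7.01, and 2161-5, low for many, was second highest at 11.8. Marker genes of non-immune cells passed with exercise. Over both genotypes Cdh5, the cadherin of endothelial junctions, fell by 0.24 (limma adjusted p = 0.0118), with 21.7 to 23.5 FPKM in exercised VV and 23.7 to 26.0 in exercised MM mice, against 24.7 to 28.8 in sedentary VV and 27.6 to 31.4 in sedentary MM mice. Pecam1, the endothelial adhesion molecule CD31, rose by 0.22 (adjusted p = 0.0412), with 33.5 to 37.02 FPKM in exercised VV and 34.6 to 41.95 in exercised MM mice, against 27.8 to 33.8 in sedentary VV and 29.1 to 33.5 in sedentary MM mice. These 2 endothelial markers thus moved in opposite directions. Of the 10 endothelial markers, 6 lay below 0 over both genotypes, beside 69% of all rows. In that comparison 5 had an unadjusted p under 0.05, beside 18.3% of all rows, and 4 of these were lower after exercise.

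Of 9 rows of fibro-adipogenic and fibroblast markers, 9 lay above 0 for exercise in MM (median 0.41), where 61% of all rows were below 0. For VV against MM after exercise 8 lay below 0 (median -0.40), beside 68.6% of all rows. One of these rows, which joins Ly6a and Ly6c1, rose by 0.32 with exercise in MM (limma adjusted p = 0.0484) and by 0.22 over both genotypes (adjusted p = 0.0313). It had 191.5 to 217.1 FPKM in exercised VV and 207.9 to 246.3 in exercised MM mice, against 169.2 to 196.8 in sedentary VV and 168.3 to 202.1 in sedentary MM mice.

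Over both genotypes, the call of Cdh5 held without any one mouse (adjusted p up to 0.0319), that of Pecam1 held only without 2161-9, 2296-2 or 2074-2 (up to 0.0918), and that of the joined row only without 2161-4, 2246-4, 2032-3, 2296-2, 2296-3 or 2074-2 (up to 0.0715). In MM the call of the joined row held only without 2161-7, 2296-5 or 2032-3 (up to 0.176). With the title number as a term none of the 4 calls held. No filter on the mean ended those of Pecam1 (0.0602) and of the joined row in MM (0.0703), and plain empirical Bayes those of Pecam1 (0.0659) and of the joined row over both genotypes (0.0644) and in MM (0.102). Quantile scaling (0.0612) and fitting the groups alone (0.121) also ended that of the joined row in MM. All 7 adipocyte markers lay below 0 for VV against MM after exercise, with a median of -0.50, beside 68.6% of all rows. All 7 also lay below 0 at rest, with a median of -0.28, beside 56.4% of all rows. The part of these cells in the results was not tested.

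**Figure D5:**
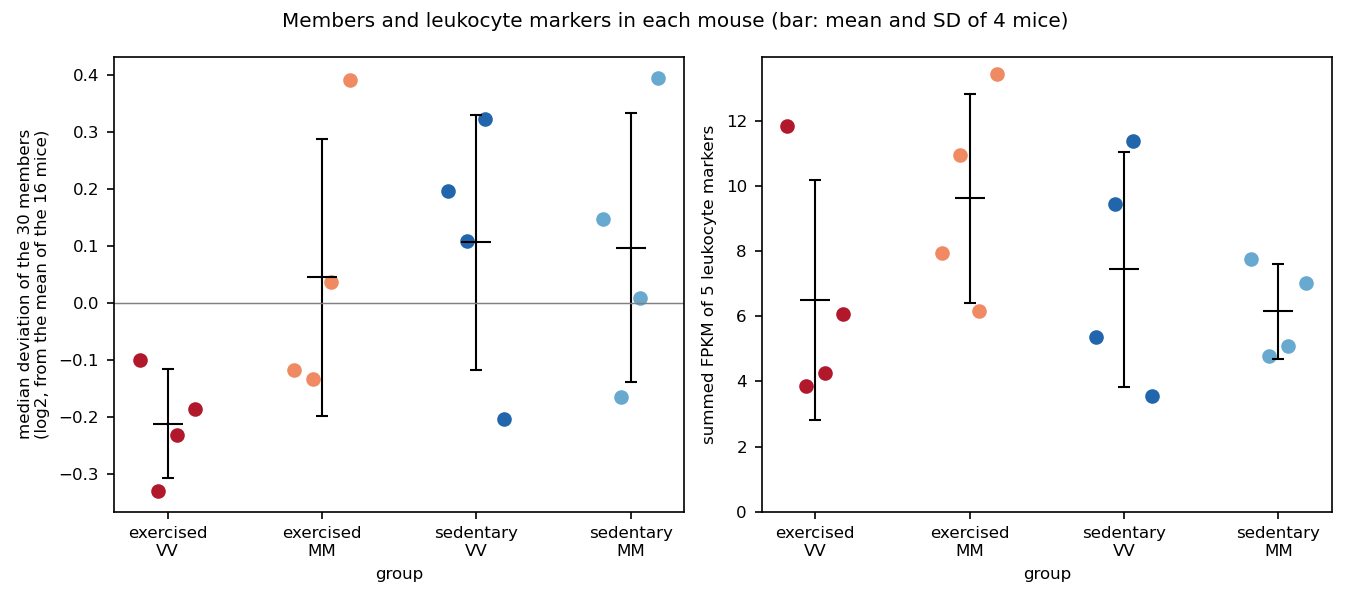
Median deviation of the 30 genes from the mean of the 16 mice (left, log2 scale) and summed FPKM of the 5 general leukocyte markers (right, axis from 0) in every mouse, with the mean and SD of 4 mice. The exercised VV mice lie between -0.33 and -0.10 on the left, where the other groups reach 0.32 to 0.40. The lowest mouse of each other group falls inside that exercised VV span. These are 2161-9 (exercised MM, -0.13), 2296-5 (sedentary VV, -0.20) and 2074-1 (sedentary MM, -0.16). The groups thus overlap on the left as well as on the right.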

How the data were processed

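The deposited table holds FPKM values of 18873 gene rows for 16 mice. Per the labels the authors made it from Illumina reads of poly(A)+ libraries against mm10, and their processing notes name FastQC, TopHat, SAMtools, StringTie and Cuffdiff 2.2.1, without stating the role of each. FPKM is scaled to each library, so a fall in one abundant transcript raises the others, and read counts, depth and counting intervals are unknown. The library kit keeps strand, but whether the quantification used it was not stated, so overlapping genes are uncertain. The 8 rows with 32 missing values were left out. Column sums ran from 470634 to 513468 FPKM, with 15263 to 15779 genes above 0.

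Rows with a mean of at least 0.5 FPKM (11693, of which 278 carry several joined names) were fitted as log2(FPKM + 0.1) with limma 3.58.1 in R 4.3.3, as 4 group means over the 16 mice, with a trended and robust empirical Bayes step, two-sided p-values and Benjamini-Hochberg adjustment over all rows, at a threshold of 0.05. Fold changes of low genes are understated by the pseudocount. The 7 comparisons share groups, so they are not independent. P-values measure the spread between mice, some of which may be littermates.

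The genes and lists were chosen with earlier results of these data known. Values in every mouse are given for the 3 genes with the smallest p in each comparison and the most abundant gene of each of the 5 roles, and from the other pathway lists for genes that passed, with group ranges for markers that passed. Names outside these rules were picked with the values in view. One gene of the receptor and JAK-STAT list was left out of it and is not reported here. Alternatives were pseudocounts of 1 and 0.01, a minimum mean of 1 FPKM, no minimum, median-ratio and quantile scaling, empirical Bayes without trend or robustness, sample weights, each pair of groups alone, the title number as a term, the mice that share a title number, and each mouse left out.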

Additional observations from a re-analysis of the deposited data

Results flagged for a closer look

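Within groups of 4 mice, 13 of 120 gene and group combinations had 1 mouse set apart from the rest by Dixon's test, where chance gives about 1 in 20, and these involved 11 genes. The genes are not independent of each other within a mouse.

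Exercised VV mouse 2296-3 was the highest of its group for Ifit3 (2.41 FPKM, next 1.91), Xaf1 (2.46 FPKM, next 1.69) and Gbp3 (2.14 FPKM, next 1.40). Exercised VV mouse 2161-7 was the lowest for Isg15 (0.500 FPKM, next 1.22). Exercised MM mouse 2297-3 was the highest for Oasl2 (1.83 FPKM, next 1.17), Ddx58 (1.95 FPKM, next 1.30) and Psmb8 (4.51 FPKM, next 3.03), and exercised MM mouse 2161-9 the lowest for H2-K1 (32.2 FPKM, next 42.4).

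At rest, sedentary VV mouse 2126-4 was the highest for Gbp3 (3.34 FPKM, next 2.025), H2-K1 (53.5 FPKM, next 32.8) and H2-D1 (62.0 FPKM, next 41.6). Sedentary MM mouse 2127-3 was the highest for Psmb10 (4.93 FPKM, next 2.87), and sedentary MM mouse 2127-1 the lowest for Irf7 (0.605 FPKM, next 1.51).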

How the results depend on the processing

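None of the 30 genes passed under any of the alternatives run, except Bst2 for exercise over both genotypes without sedentary MM mouse 2074-1. That count lay between 0 and 1 as each mouse was left out. Fitting the title number as a term left 7 of 30 genes below 0 for exercise in MM (median 0.37), 16 for exercise in VV (-0.04) and 10 for both genotypes (0.22). It reversed Bst2 and Irgm1 for exercise in MM to 0.32 and 0.58, Irgm1 for exercise in VV to 0.15, and Bst2, Irgm1 and Ifit1 over both genotypes to 0.10, 0.37 and 0.60. It also reversed Psmb9 for VV against MM at rest to 0.23 and Gbp2 over both states to 0.0724. The cause was not tested, and this term leaves few mice to compare. For exercise in MM it compares no exercised and sedentary MM mice within a number. Ifi204 for exercise in VV lay between -0.082 and 0.29 as each mouse was left out, and was below 0 without 2161-5. Under median-ratio scaling, genes below 0 numbered 24 of 30 for exercise in VV, 23 for both genotypes and 23 for VV against MM after exercise, and under quantile scaling 23 for the VV minus MM difference and 24 for VV against MM after exercise. Genes at an unadjusted p under 0.05 numbered 7 with sample weights, 9 with the groups fitted alone and 0 with the title number for exercise in VV, 0 with the title number for both genotypes, and 4 with the title number for exercise in MM and for VV against MM at rest.

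Rows of the whole table that passed were fewer with the title number (0 for exercise in MM, 1 for VV and 1 for both) and more with sample weights (239 for exercise in MM, 557 for both). For exercise in VV they numbered 46 under median-ratio scaling, 5 with the groups fitted alone, and between 12 and 42 as each mouse was left out. For exercise in MM they lay between 73 and 147 as each mouse was left out. Depth limits all low genes, and it is unknown here.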
